A study of Homo sapiens with 2 samples.

Results

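The 10 genes described here are 9 members of the BCL2 family and APAF1, taken from the 22465 genes measured in U937 cells. They were fixed by gene symbol, and each was read from the array entries that carried its symbol alone, with the brightest entry taken where a gene had more than 1. All 10 were found, and all 10 were among the 11233 brighter genes, those whose mean level on both arrays was not under the median of all genes. U937 is an established human cell line with monocytic features, derived from a blood cancer and labelled by the submitters as acute myeloid leukemia. The cells received either the empty lentiviral vector or the same vector with TWIST-1 cDNA, and green fluorescent cells of both cultures were sorted. TWIST-1 was therefore forced from a vector in a line that also carried its own TWIST1 gene. Each culture was measured on 1 Affymetrix Human Transcriptome Array 2.0, so no replicate error or p-value can be given, and an effect of TWIST-1 cannot be told apart from a difference between the 2 cultures or the 2 arrays.

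The BCL2 family controls whether the outer membrane of the mitochondrion stays intact. The survival proteins BCL2, BCL-XL (encoded by BCL2L1), MCL1 and A1 (encoded by BCL2A1) hold the pore-forming proteins BAX and BAK (encoded by BAK1) in check. Small proteins with a BH3 domain, among them BID, BIM (encoded by BCL2L11) and NOXA (encoded by PMAIP1), bind the survival proteins or activate the pore formers directly. Once pores open, cytochrome c leaves the mitochondrion and assembles with APAF1 into the apoptosome, which activates caspase-9. Myeloid cells are known for their dependence on MCL1, a short-lived protein that must be made continually. Which of the survival and which of the killer genes differed between vector-transduced and TWIST-1-transduced cells, and in which direction, is the comparison made here. Levels are given as deposited log2 values, and the log2 ratio is the level on the TWIST-1 array minus that on the vector array. The arrays give 1 value per locus, so the splice forms of MCL1, BCL2L1 and BCL2L11, some of which are known to have opposite or unequal activity, were not separated. Each gene has its own probes, so the levels of different genes are not ranked here. Calling a gene brighter or dim describes its signal on the array only, and so do the summed levels of lists.

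Across the 10 genes, MCL1, APAF1 and BCL2A1 were at least 1.2-fold lower in TWIST-1-transduced U937 cells, and none was at least 1.2-fold higher. The 1.2-fold threshold, a log2 ratio of 0.26, is the one the study used, together with a p-value limit that was not applied here. Of all 22465 genes, 2.85% were at least 1.2-fold lower and 2.71% at least 1.2-fold higher. Among the brighter genes the lower share was 4.23% and the higher share 1.66%. The 10 genes were chosen with results of these arrays known, so their count is a description. A lower value can come from less of the RNA per cell or from fewer cells that make it, and these cannot be told apart here. The log2 ratios of the 10 genes had a median of -0.07, with 7 below 0, 2 above 0 and 1 at 0. All genes together had a median of 0.04, and the brighter genes 0.0035. Ratios below 0 were found for 34.8% of all genes and 46.5% of the brighter genes. The middle 50% of the brighter genes ran from -0.098 to 0.090, and 5 of the 10 genes lay inside it, 4 below it and 1 above it. With 1 array per condition, no test was possible.

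**Figure D1:**
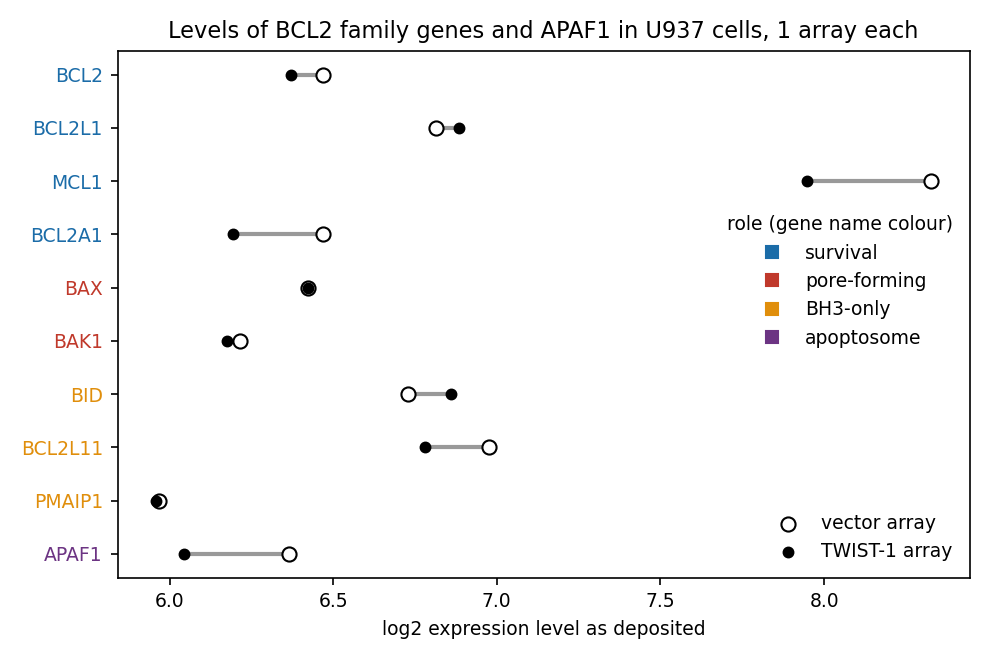
Deposited log2 expression level (horizontal axis) of each of the 10 genes on the vector array (open circles) and the TWIST-1 array (filled circles), 1 array each, with gene names coloured by role. MCL1, APAF1 and BCL2A1 have the widest gaps, with the TWIST-1 array lower, and the 2 circles of BAX coincide.

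TWIST-1 belongs to the basic helix-loop-helix factors, which bind E-boxes, so the promoters of the 10 genes were searched for the letters CANNTG, a palindromic pattern read the same on both strands. The RefSeq promoter table for GRCh38.p14 held 14 promoters for 9 of the 10 genes, and MCL1 was not among them. In the 250 bases before the start site, 5 of these 14 promoters held CANNTG, against 61.8% of all 35116 promoters of the same length. They were the promoters of BAX, of BCL2A1 and 3 of the 5 listed for BID, which overlap one another in part. BAX held 5 matches, and 4 or more CANNTG matches were found in 3.35% of all promoters. Of the 5 matches in BAX, 4 read CACGTG, a form found in 6.34% of all promoters and 4 or more times in 0.0142%. Which forms of CANNTG are bound by TWIST-1 was not examined here. BCL2A1 held 1 match, 25 bases before its start, and APAF1 held none. The sequences shown span the range seen among these genes, BAX with the most matches and the same level on both arrays, and BCL2A1 and APAF1 with 1 and 0 matches and lower levels on the TWIST-1 array. Each is printed 5′ to 3′ on the strand of the gene and ends at the base before the start site, with every CANNTG match in capitals.
BAX, chr19:48954625-48954874, plus strand: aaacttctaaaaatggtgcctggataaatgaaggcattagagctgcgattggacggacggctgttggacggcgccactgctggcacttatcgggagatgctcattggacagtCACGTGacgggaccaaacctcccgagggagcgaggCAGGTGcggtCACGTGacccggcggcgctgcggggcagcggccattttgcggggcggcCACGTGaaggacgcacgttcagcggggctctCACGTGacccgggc
BCL2A1, chr15:79971197-79971446, minus strand: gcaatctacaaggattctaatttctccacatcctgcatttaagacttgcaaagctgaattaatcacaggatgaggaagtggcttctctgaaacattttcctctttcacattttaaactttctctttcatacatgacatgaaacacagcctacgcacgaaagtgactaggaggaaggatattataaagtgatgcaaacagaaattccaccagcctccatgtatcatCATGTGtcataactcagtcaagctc
APAF1, chr12:98645040-98645289, plus strand: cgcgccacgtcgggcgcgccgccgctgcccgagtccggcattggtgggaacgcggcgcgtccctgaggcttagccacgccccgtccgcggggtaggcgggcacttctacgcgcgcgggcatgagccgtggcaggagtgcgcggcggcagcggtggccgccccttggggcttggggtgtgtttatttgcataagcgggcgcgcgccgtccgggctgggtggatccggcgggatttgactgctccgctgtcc
In BAX the matches started 138, 103, 93, 45 and 14 bases before the start site. The letters TGANTCA of AP-1, searched on both strands, were in 0 of the 14 promoters and in 6.57% of all promoters. The letters TATAAA, also searched on both strands, were found in BCL2A1 and in 1 of the 2 promoters of BCL2L1, and in 10.7% of all promoters. These matches describe the letters in these windows only. They were searched after the log2 ratios were known, and binding was not measured here.

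Among the survival genes, MCL1 stood lowest. Its log2 level was 8.33 on the vector array and 7.95 on the TWIST-1 array. The log2 ratio of -0.38, or 1.30-fold lower, ranked 130 from the lowest of all genes, and 0.766% of the brighter genes had a lower ratio. BCL2A1, a survival gene of myeloid and activated immune cells and a known target of NF-kB, had log2 levels of 6.47 on the vector array and 6.19 on the TWIST-1 array. Its log2 ratio of -0.28, or 1.21-fold lower, passed the threshold by 0.013 on the log2 scale and ranked 541 from the lowest. These were the only survival genes past 1.2-fold.

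BCL2, the founding member of the family and the target of the drug venetoclax, had log2 levels of 6.47 on the vector array and 6.37 on the TWIST-1 array. Its log2 ratio of -0.098, or 1.07-fold lower, lay just inside the middle 50% of the brighter genes, and 25.1% of these had a lower ratio. BCL2 was also among the genes that the study measured by real-time PCR, and those measurements were not used here. BCL2L1, whose long form BCL-XL is a survival protein of erythroid cells and platelets, was the only survival gene with a higher value on the TWIST-1 array. Its log2 level was 6.81 on the vector array and 6.88 on the TWIST-1 array, a log2 ratio of 0.07 or 1.05-fold higher, and 31.8% of the brighter genes had a higher ratio. The survival genes thus did not share 1 direction, and their log2 ratios ran from -0.38 to 0.07.

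**Figure D2:**
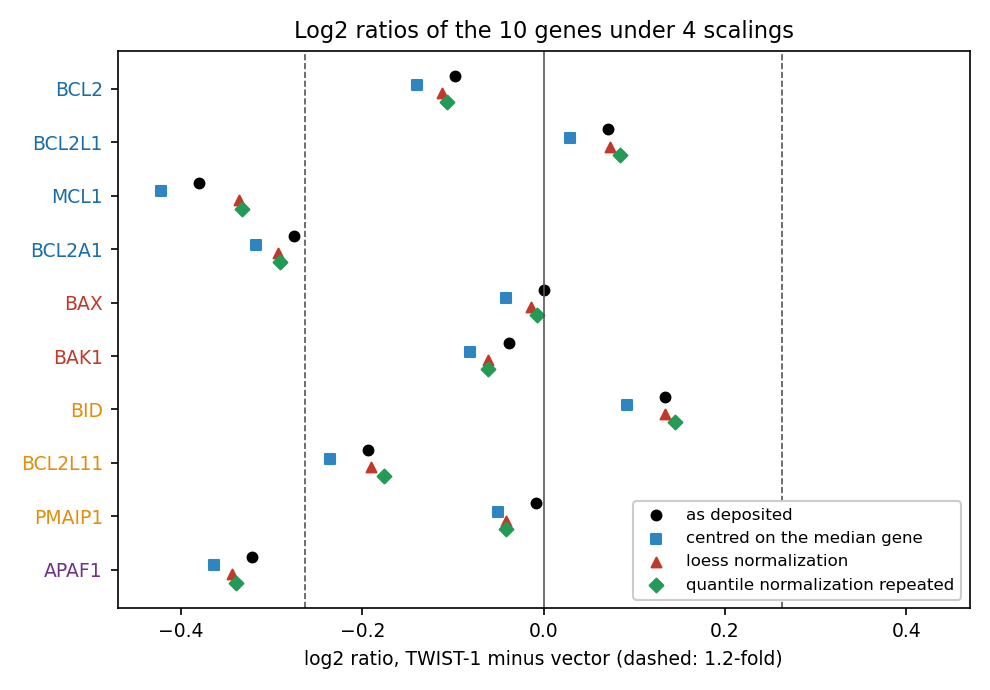
Log2 ratio, TWIST-1 minus vector (horizontal axis), of each of the 10 genes as deposited and under 3 other scalings, with dashed lines at 1.2-fold. MCL1, BCL2A1 and APAF1 lie beyond the lower line in all 4 scalings, and no gene reaches the upper line.

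The pore-forming genes were close to level. BAX, which moves from the cytosol to the mitochondrion when activated, had a log2 level of 6.42 on both arrays. Its deposited values were equal to the last digit, as were those of 1177 genes (5.24%), so this equality is common in the table. BAK1, whose product resides in the outer mitochondrial membrane and is restrained by MCL1 and BCL-XL, had log2 levels of 6.21 on the vector array and 6.18 on the TWIST-1 array, a log2 ratio of -0.039. Both ratios lay inside the middle 50% of the brighter genes.

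The BH3-only genes had ratios on both sides of 0, and none reached 1.2-fold. BCL2L11, which encodes BIM, a binder of all the survival proteins, was represented by 2 array entries. The brighter entry had log2 levels of 6.98 on the vector array and 6.78 on the TWIST-1 array. The other entry had log2 levels of 5.50 and 5.26. Both entries were lower on the TWIST-1 array, with log2 ratios of -0.19 and -0.24, and the brighter one was short of the threshold by 0.069. BID, which caspase-8 cleaves to link death receptors with the mitochondrion, had the highest ratio of the 10 genes. Its log2 level was 6.73 on the vector array and 6.86 on the TWIST-1 array. The log2 ratio of 0.13, or 1.10-fold higher, was exceeded by 13.8% of the brighter genes. PMAIP1, which encodes NOXA, a selective partner of MCL1 and A1, had log2 levels of 5.97 on the vector array and 5.96 on the TWIST-1 array, a log2 ratio of -0.0088.

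APAF1, the scaffold of the apoptosome and the only one of the 10 genes outside the BCL2 family, was lower on the TWIST-1 array. Its log2 level was 6.36 on the vector array and 6.04 on the TWIST-1 array. The log2 ratio of -0.32, or 1.25-fold lower, ranked 286 from the lowest of all genes, and 1.71% of the brighter genes had a lower ratio. It was the only one of the 6 killer genes past 1.2-fold. The genes past the threshold thus came from both sides, MCL1 and BCL2A1 from the survival genes and APAF1 from the killers.

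**Figure D3:**
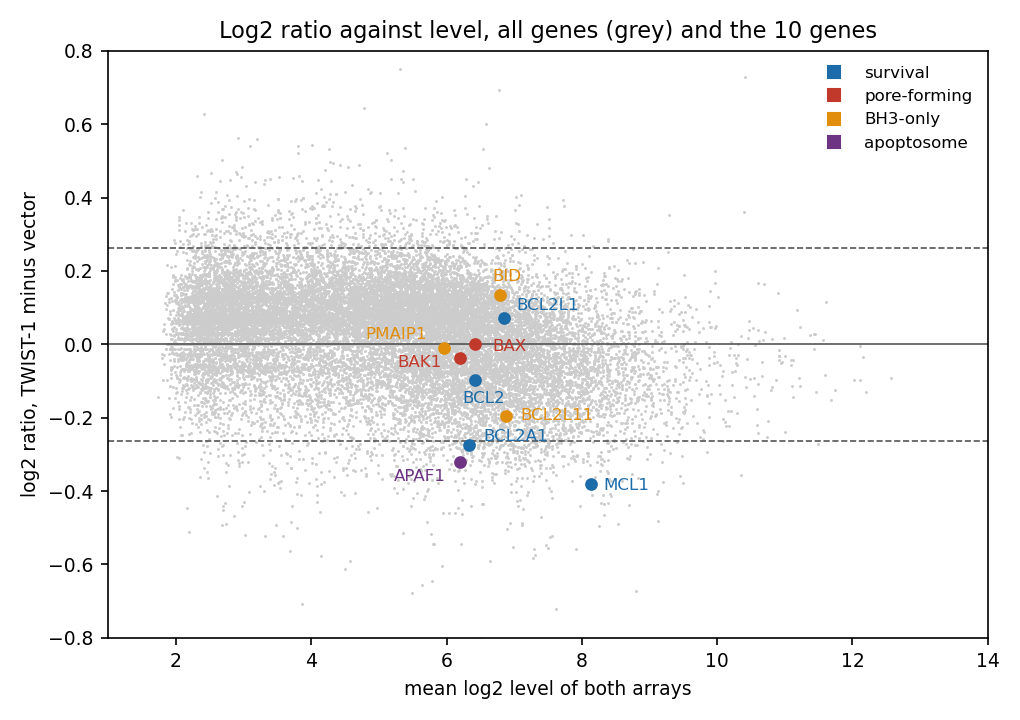
Log2 ratio, TWIST-1 minus vector (vertical axis), against the mean log2 level of both arrays (horizontal axis) for all genes (grey) and the 10 genes (coloured by role), with dashed lines at 1.2-fold. MCL1, APAF1 and BCL2A1 lie below the lower dashed line and the other 7 genes between the lines, and 13 genes with log2 ratios beyond 0.8 in size are outside the plotted range.

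Taken by role, the 4 survival genes had a median log2 ratio of -0.19 and a mean of -0.17. The 6 killers, BAX, BAK1, BID, BCL2L11, PMAIP1 and APAF1, had a median of -0.024 and a mean of -0.07. The survival median minus the killer median was thus -0.16 on the log2 scale. Both medians were below that of all genes, 0.04, and that of the brighter genes, 0.0035, to which the killer median was closer. The difference rests on few genes. Without MCL1 or without BCL2A1 it was -0.07, and without BCL2 or without BCL2L1 it was -0.25. Without APAF1 among the killers it was -0.18.

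The log2 ratio of each survival gene was also set against that of each BCL2 family killer, whether or not their proteins bind each other. A negative difference means that the survival gene was lower on the TWIST-1 array relative to that killer. Of the 20 pairs, which reuse the same 9 genes and are not independent, 15 were below 0. MCL1 and BCL2A1 had the lowest ratios of the 9 genes, so all their differences had to be below 0. The count thus restates the single ratios. MCL1 was lower relative to all 5 killers, from -0.51 against BID to -0.19 against BCL2L11. Against PMAIP1, whose product NOXA binds MCL1, the difference was -0.37, and against BAK1 it was -0.34. BCL2A1 was likewise lower relative to all 5, from -0.41 against BID to -0.082 against BCL2L11. BCL2 was lower relative to 4 of 5 and 0.096 higher relative to BCL2L11. BCL2L1 went the other way, higher relative to 4 of 5, up to 0.26 against BCL2L11, and lower only against BID, at -0.063. These differences concern messenger RNA on 1 pair of arrays, and the proteins were not measured here.

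**Figure D4:**
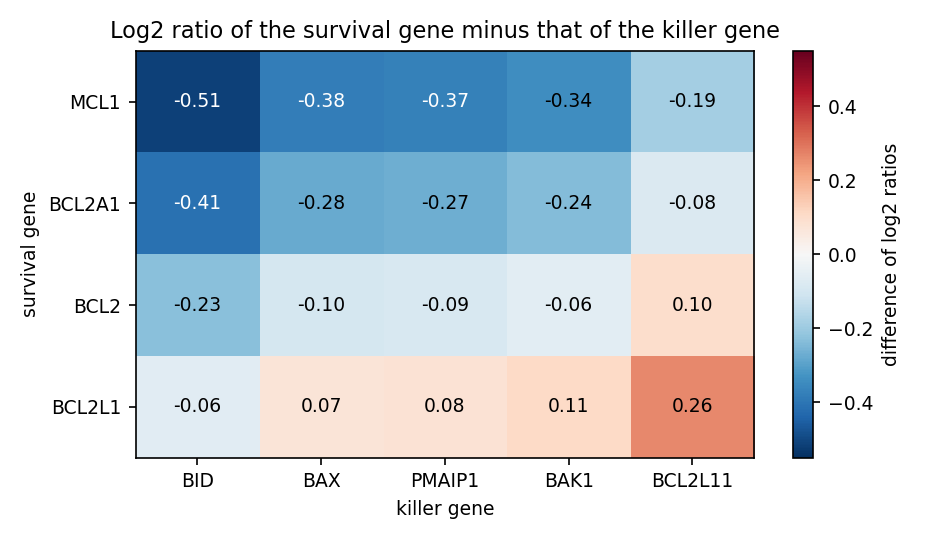
Difference of log2 ratios (colour and printed value) between each survival gene (rows) and each BCL2 family killer (columns), from 1 array per condition. The rows of MCL1 and BCL2A1 are negative throughout, from -0.51 to -0.082, and that of BCL2L1 is positive except against BID.

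Of 14 other genes of the family, 13 were measured and BBC3 was not. None of the 13 was 1.2-fold higher or lower. Their log2 ratios had a median of 0.04, the same as that of all genes at this precision. The lowest was BMF, a BH3-only gene whose product is tied to the cytoskeleton, with log2 levels of 6.10 and 5.92 and a ratio of -0.18. The highest was BCL2L15, with log2 levels of 2.46 and 2.66 and a ratio of 0.20, but it was dim on both arrays. The survival gene BCL2L2, which encodes BCL-W, had a ratio of 0.06, and the BH3-only genes BAD, BIK and HRK had ratios of 0.09, 0.06 and 0.08. Over the 22 measured genes of the family, MCL1 and BCL2A1 were the only ones past 1.2-fold.

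Among the release factors and the caspases, none was 1.2-fold higher or lower. The 8 genes of mitochondrial release factors and channels were all measured. Their lowest ratio was that of CYCS, which encodes the cytochrome c that joins APAF1, at -0.13 with log2 levels of 8.11 and 7.97, and their highest that of ENDOG, a mitochondrial endonuclease gene, at 0.07. Of 7 listed apoptotic caspases, 5 were measured. CASP9, the caspase that the apoptosome activates, had log2 levels of 6.50 and 6.57 and a ratio of 0.08, against -0.32 for APAF1. CASP2 had the lowest ratio of the caspases at -0.10 and CASP10 the highest at 0.12.

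Of 8 listed genes, those of inhibitor of apoptosis proteins and CFLAR, 6 were measured, and BIRC3 and CFLAR were not. The median log2 ratio was -0.11, the lowest of the lists outside the 10 genes. XIAP, which blocks caspase-9 and the executioner caspases, had log2 levels of 5.67 on the vector array and 5.41 on the TWIST-1 array. Its log2 ratio was -0.26, short of 1.2-fold as deposited and past it under the 3 other scalings, at -0.30 or -0.31. BIRC6, an inhibitor with ubiquitin ligase activity, had a log2 ratio of -0.24, which passed 1.2-fold only with ratios centred on the median gene, at -0.28. BIRC2, a ubiquitin ligase of the tumor necrosis factor receptor complex, had a ratio of -0.21. BIRC5 and NAIP had ratios of 0.03 and -0.02. BIRC7, in contrast, was at least 1.2-fold higher as deposited, with log2 levels of 6.08 and 6.35 and a ratio of 0.27, and fell short of the threshold under the 3 other scalings, at 0.23 to 0.25.

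**Figure D5:**
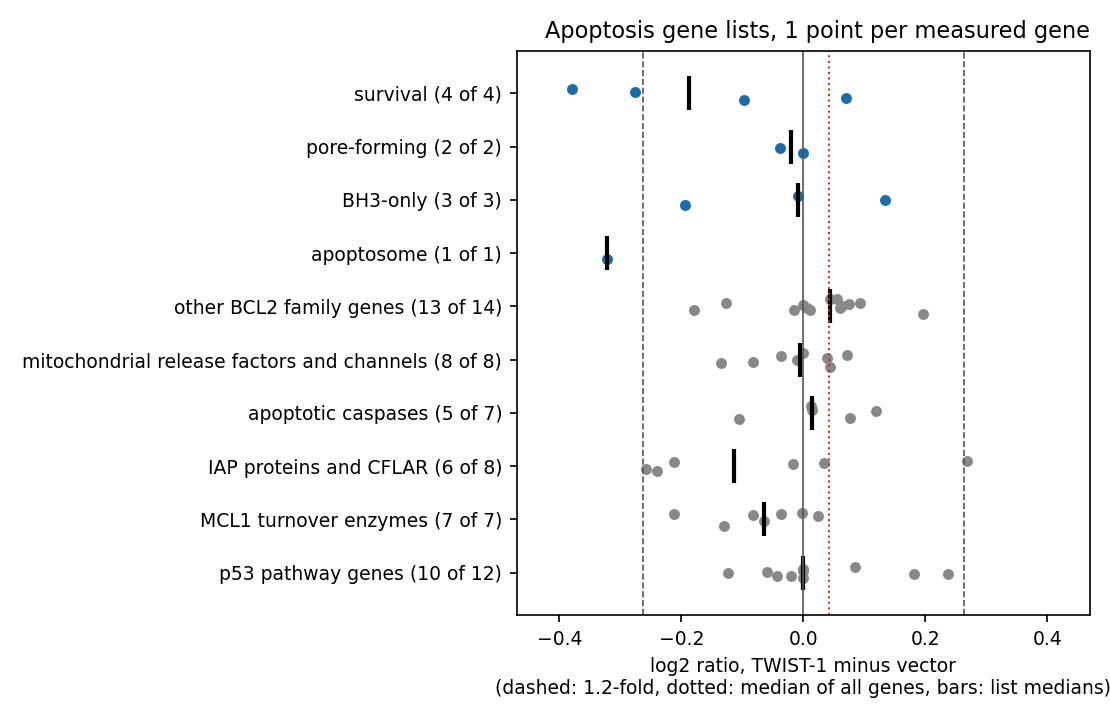
Log2 ratio, TWIST-1 minus vector (horizontal axis), of each measured gene (points) by apoptosis gene list, cell type markers not shown, with list medians (bars), 1.2-fold (dashed lines) and the median of all genes (dotted line). The numbers beside each list give the genes measured of those listed. Of the genes plotted in grey, only BIRC7 passes a dashed line as deposited.

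The MCL1 protein is degraded through several ubiquitin ligases and spared by deubiquitinases. All 7 listed enzymes of its turnover, among them the kinase GSK3B, were measured. None reached 1.2-fold, 6 had log2 ratios below 0, and the median was -0.06. Of all genes 34.8% had ratios below 0, and of the brighter genes 46.5%. USP9X, a deubiquitinase that stabilises MCL1, had log2 levels of 8.12 and 7.91 and the lowest ratio, -0.21. HUWE1, a ligase for MCL1, had log2 levels of 9.16 and 9.18 and the highest ratio, 0.02. Of 12 genes of the p53 pathway, which drives PMAIP1, BAX and APAF1 in other settings, 10 were measured, none reached 1.2-fold and the median was 0. Their lowest ratio was that of MDM2, the p53 ubiquitin ligase gene, at -0.12, and the highest that of SESN2, a stress-induced gene, at 0.24.

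The introduced gene and cell type markers were checked on the same arrays. TWIST1 had log2 levels of 4.13 on the vector array and 4.34 on the TWIST-1 array, a log2 ratio of 0.21 that was short of 1.2-fold, and whether its probes cover the introduced cDNA was not analysed here. Of 9 measured myeloid markers, LYZ was at least 1.2-fold lower and none was higher. LYZ had log2 levels of 11.63 and 11.36 and a ratio of -0.27, which was short of 1.2-fold after loess (-0.14) or repeated quantile normalization (-0.26). ITGAM had log2 levels of 6.47 and 6.29 and the next lowest ratio, -0.18. CEBPA had log2 levels of 8.77 and 8.79, CD68 9.14 and 9.06 and CD14 3.90 and 3.94. ITGB2 and SPI1 had ratios of -0.04 and 0.05. MPO had the highest ratio of the list, 0.16, and CSF1R had 0.11. None of 5 T cell genes differed by 1.2-fold. CD4, which monocytic cells are also known to express, had log2 levels of 8.57 and 8.44 and the lowest ratio, -0.13, and CD2 had 2.53 and 2.62 and the highest, 0.09. The remaining T cell genes CD3D, CD3E and LCK lay between 3.94 and 5.32. Of 4 measured B cell genes, EBF1 was at least 1.2-fold higher, with log2 levels of 5.20 and 5.55 and a ratio of 0.35. CD79A had 5.90 and 5.85 and the lowest ratio, -0.053, PAX5 had 5.45 and 5.52, and MS4A1 had 2.43 and 2.49. Of 3 measured erythroid genes, KLF1 was at least 1.2-fold higher, with log2 levels of 6.55 and 6.90 and a ratio of 0.35, and EPOR had the lowest ratio, 0.05. On the log2 scale, the summed level of the myeloid list was 12.2 on the vector array and 12.0 on the TWIST-1 array, most of it from LYZ, and that of the T cell list was 8.85 and 8.74, most of it from CD4. The summed level of the B cell list was 7.19 and 7.28 and that of the erythroid list 7.55 and 7.77. Their part in the ratios of the 10 genes was not tested.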

How the data were processed

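Total RNA from U937 cells with vector or TWIST-1 was hybridised to a single Human Transcriptome Array 2.0 each. Log2 levels per transcript cluster were deposited by the authors, whose methods name quantile normalization. The deposited values of the 2 arrays did not share 1 distribution. Their medians were 3.90 on the vector array and 3.97 on the TWIST-1 array, and sorted transcript cluster values differed by up to 0.205. Affymetrix Expression Console is the tool in the submitters' processing notes. For probe summarisation and background correction, the steps were not given in the sources used here. Values were used as deposited. Of 70523 table entries, 23781 carried 1 gene symbol in the platform annotation, and symbols were updated through gene identifiers of GRCh38.p14 for 21497 of them. The brightest entry stood for each gene. The 10 genes, the other gene lists and the fold threshold were chosen with earlier results of these data known. Every one of the 10 genes is named, and of each other list the genes past 1.2-fold and the highest and lowest ratio. Other genes were named after their values were seen. Alternatives were centring the ratios on the median gene, loess over 67528 transcript clusters (span 0.7, 3 iterations), quantile normalization repeated, an offset of 16 on the linear scale, the mean of a gene's entries, and thresholds of 1.5-fold and 2-fold. Counts were also repeated over the brighter genes alone. Leaving out single genes was chosen later, with the data in view. With 2 arrays, their number sets the precision. The picking and counting of genes was run on simulated data with chosen noise and shifts larger than those of the 10 genes. That run does not measure the error of these arrays. Software was Python 3.11.15 (pandas 2.3.3, numpy 2.4.6, matplotlib 3.10.9) and R 4.3.3 (limma 3.58.1).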

Additional observations from a re-analysis of the deposited data

How the results depend on the processing

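MCL1 and APAF1 were at least 1.2-fold lower under the deposited, centred, loess and repeated quantile scalings, with the offset of 16 and with the mean of a gene's entries. BCL2A1 was too, except with the offset, where its log2 ratio was -0.23 and 2 genes remained past the threshold. The share of all genes at least 1.2-fold lower also moved, from 2.85% as deposited to 4.83% with centred ratios. It was 3.68% after loess, 3.36% after repeated quantile normalization, 1.22% with the offset and 2.81% with the mean of a gene's entries. At 1.5-fold and at 2-fold, 0 of the 10 genes were lower, as those thresholds require. None of the 10 was at least 1.2-fold higher under any alternative run. The share of all genes at least 1.2-fold higher was 2.71% as deposited, 1.46% with centred ratios and 1.48% after loess. It was 1.59% after repeated quantile normalization, 0.369% with the offset and 2.67% with the mean of a gene's entries. The survival median minus the killer median ranged from -0.16 to -0.14 over these settings. Left out after seeing the data, MCL1 or BCL2A1 brought it to -0.0740 and BCL2 or BCL2L1 to -0.2519. PMAIP1 ranged from -0.051 to -0.0088 and BAX from -0.042 to 0 over the 4 scalings. Among the inhibitor of apoptosis genes, 0 were at least 1.2-fold lower as deposited, with the offset and with the mean of a gene's entries. The number was 2 with centred ratios and 1 after loess or repeated quantile normalization. No paired analysis was possible because each condition had 1 array.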
